A study of Danio rerio with 9 samples.

Results

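The genes described here are 10 core and output genes of the circadian clock in zebrafish melanomas: the period genes per1a, per1b, per2 and per3, the REV-ERB receptor genes nr1d1, nr1d2a and nr1d2b, the CLOCK genes clocka and clockb, and dbpa. They were chosen by name, as genes whose levels follow the phase of the clock, and all 10 were found among the 30649 gene names of the count tables. All 10 had enough reads to be tested, among 15169 genes in all. Read counts were available for 9 melanomas, each sequenced as a single library after ribosomal RNA was removed, and the time of day of dissection is not given in the labels used here. All 9 tumours arose in fish of the genotype p53-/-; mitfa:BRAFV600E;Na-/-, in which mutant BRAF is driven by the melanocyte promoter mitfa. Embryos were injected with 20 ng/µL of MiniCoopR, a vector that restores mitfa and carries a gene of interest into the same pigment cells, together with Tol2 RNA. The vector carried CDK13 R860Q, a mutant cyclin-dependent kinase, in 5 tumours (R157 to R161) and EGFP in 4 control tumours (R162 to R165). No tumour carried added wild-type CDK13, so the mutation and the addition of human CDK13 cannot be told apart. Ages are not given, and it is not stated whether any tumours share a fish, so the p-values below speak only of the spread among these samples.

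In the vertebrate clock, CLOCK and BMAL proteins form an activator that binds E-box elements and switches on the period and cryptochrome genes, whose proteins return to block it. A second loop runs through the REV-ERB receptors, which the same activator induces and which repress the BMAL genes, so that in a rhythmic tissue REV-ERB and BMAL transcripts peak at opposite times. DBP and its relatives are output factors that bind D-box elements. Zebrafish peripheral tissues keep their own clocks, and light reaches them directly: in zebrafish cells it induces per2, a cryptochrome and DNA repair photolyases. A tissue sample is therefore a single time point of this cycle, and samples taken at different phases differ in these genes.

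Total counts ran from 7252950 to 11150732 in R860Q tumours and from 5518472 to 15120176 in EGFP tumours. Human CDK13, counted on its own row, was at 16.2 to 751 normalised CPM (counts per 1000000 of scaled library size, here CPM) in R860Q tumours and had at most 5 reads in any EGFP tumour. Of 12 listed melanocyte genes 11 were measured well enough to test, and their summed level was 3350.0 to 15166 CPM in R860Q and 5778 to 12255 CPM in EGFP tumours. Skeletal muscle RNA was uneven within both groups: the 19 tested of 24 listed muscle genes summed to 28.01 to 5049.7 CPM in R860Q and 12.1 to 1229 CPM in EGFP tumours. The muscle score, the mean log2 deviation of these genes, was 4.62 in R860Q R159, 3.96 in R860Q R160, 2.86 in EGFP R162 and 1.67 in R860Q R158, and between -2.93 and -1.89 in the other tumours. In these bulk samples, fewer cells of a type and less RNA per cell cannot be told apart.

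**Figure D1:**
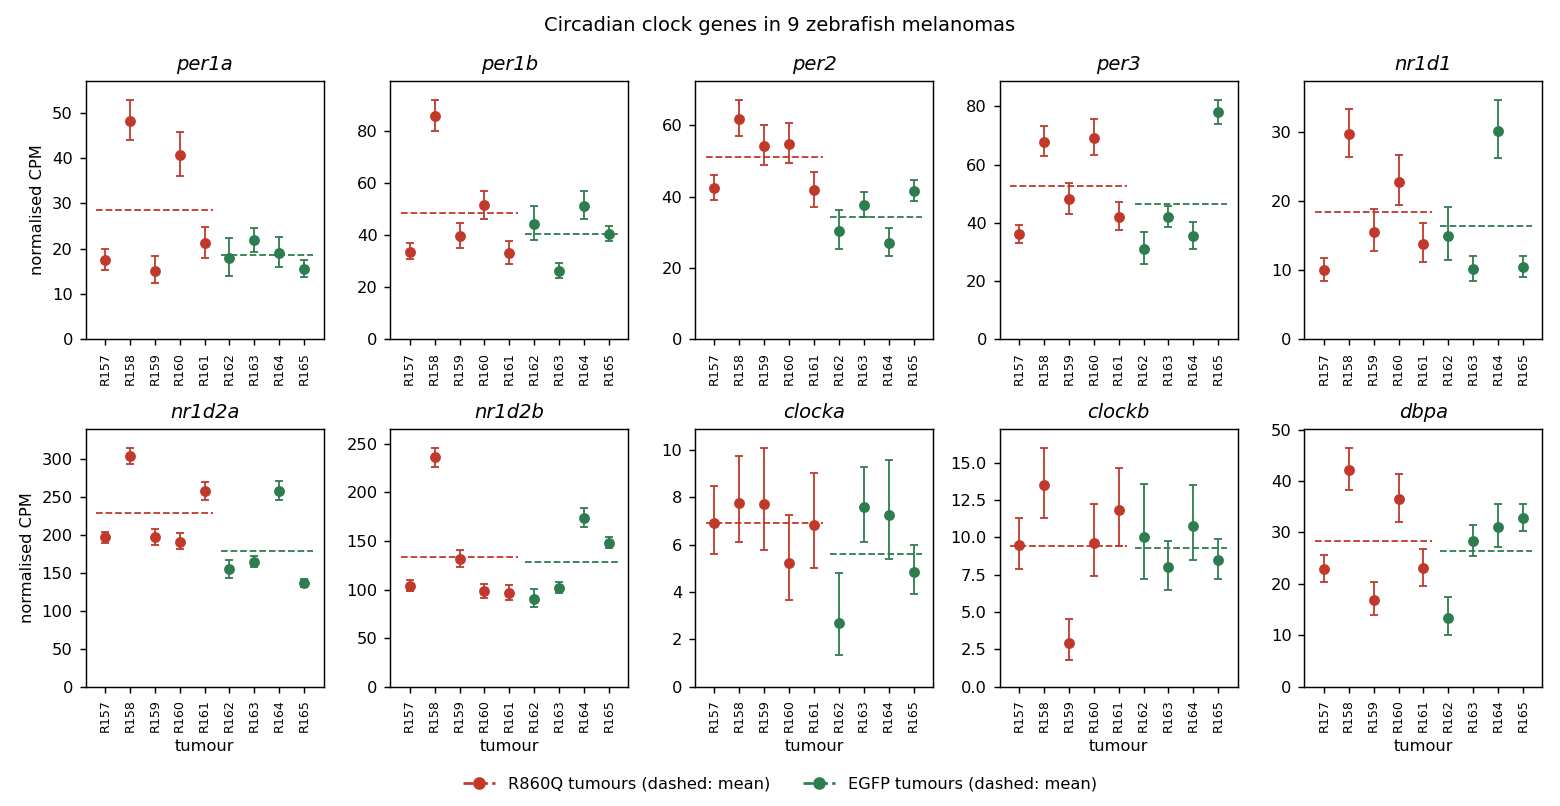
Normalised CPM (y axis, linear, from 0) of each clock gene in each tumour (x axis), with red points for R860Q and green points for EGFP tumours, dashed lines at group means and bars for the exact 95% Poisson interval of the reads. R860Q R158 is the highest tumour in 8 of the 10 panels, per2 is the gene whose groups do not overlap, and clocka and clockb each have a single low tumour.

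The period genes, which code for the repressors of the loop, had fitted differences above 0 (R860Q over EGFP) in all 4 cases, and none passed the test. per1a was at 17.5, 48.2, 15.2, 40.7 and 21.2 CPM in R860Q tumours R157 to R161 and at 17.9, 21.8, 19.1 and 15.6 CPM in EGFP tumours R162 to R165. R860Q R158 and R160 stood above the rest, and the other 3 R860Q tumours lay between 15.2 and 21.2 CPM, close to the EGFP range of 15.6 to 21.8 CPM. Its paralog per1b was at 33.6, 85.7, 39.5, 51.3 and 33.0 CPM in R860Q and at 44.3, 26.2, 51.2 and 40.5 CPM in EGFP tumours. Here R860Q R158 alone stood above all EGFP tumours by more than counting error, and the groups overlapped.

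per2, the light-inducible period gene in zebrafish, was at 42.4, 61.9, 54.2, 54.8 and 41.8 CPM in R860Q and at 30.3, 37.8, 27.1 and 41.5 CPM in EGFP tumours. The groups did not overlap, all R860Q values being the higher, though the lowest R860Q value (41.8 CPM) and the highest EGFP value (41.5 CPM) differed by less than counting error. Of all 15169 genes, 0.626% had all R860Q tumours above all EGFP tumours. Without a scaling factor, the per2 groups overlapped, with 38.9 CPM in the lowest R860Q tumour and 50.6 CPM in the highest EGFP tumour. The means were 51.0 ± 8.69 CPM in R860Q and 34.2 ± 6.64 CPM in EGFP tumours (SD, n = 5 and 4). The fitted log2 fold change was 0.58 ± 0.23 (SE). The unadjusted p was 0.0321 and the adjusted p 0.767 over all genes, by edgeR's quasi-likelihood test and the Benjamini-Hochberg method. An unadjusted p under 0.05 was reached by 6.14% of all genes, and by 1.99% with the higher level in R860Q tumours. With a single tumour left out, the log2 fold change of per2 ranged from 0.48 to 0.68. Its unadjusted edgeR p then rose above 0.05 without R860Q R158 (0.0679), R159 or R160 (0.0579). It also did so without EGFP R162 (0.0645) or R164, and stayed under 0.05 without any of the others. With the muscle score added as a covariate, per2 stood at 0.50 ± 0.27 (SE, edgeR adjusted p = 0.997). T and NK lymphocyte RNA was uneven too, the 5 tested of 8 listed genes summing to 5.39 to 38.0 CPM in R860Q and 15.6 to 405 CPM in EGFP tumours. EGFP R163, at 15.6 CPM, lay within the R860Q range, and the other EGFP tumours were at 296 CPM or more. The part of these cells in the per2 difference was not tested.

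per3 was at 36.0, 67.9, 48.1, 69.2 and 42.1 CPM in R860Q and at 31.1, 42.0, 35.4 and 78.0 CPM in EGFP tumours. Its highest tumour was EGFP R165, and R860Q R158 and R160 came next. Thus R160 was among the 3 highest tumours in all 4 period genes, and R158 in all 4 as well. By edgeR the log2 fold changes were 0.62 ± 0.37 (SE, adjusted p = 0.911) for per1a, 0.26 ± 0.34 (adjusted p = 0.962) for per1b and 0.17 ± 0.33 (adjusted p = 0.980) for per3. These values depended on single tumours: without R860Q R158 per1a stood at 0.35 and per1b at -0.041, and per3 stood at 0.54 without EGFP R165 and at 0.021 without EGFP R162.

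The REV-ERB genes, whose products repress the BMAL genes, overlapped between the groups, nr1d2a through EGFP R164 alone. nr1d1, which codes for REV-ERB alpha, was at 9.99, 29.8, 15.6, 22.8 and 13.8 CPM in R860Q and at 14.9, 10.1, 30.3 and 10.4 CPM in EGFP tumours. Its pair of highest tumours, EGFP R164 and R860Q R158, came from different groups. nr1d2a, a REV-ERB beta gene, was at 196, 303, 197, 191 and 257 CPM in R860Q and at 155, 164.4, 258 and 136 CPM in EGFP tumours. The other REV-ERB beta gene, nr1d2b, was at 104, 236, 132, 98.4 and 96.8 CPM in R860Q and at 90.7, 102, 174 and 148 CPM in EGFP tumours. R860Q R158 was the highest tumour for both REV-ERB beta genes, and EGFP R164 was second for both. The log2 fold changes were 0.17 ± 0.42 for nr1d1, 0.36 ± 0.29 for nr1d2a and 0.053 ± 0.35 for nr1d2b (SE, edgeR adjusted p = 0.986, 0.938 and 0.997). Single tumours moved all 3 values. Without EGFP R164 they were 0.64 for nr1d1, 0.59 for nr1d2a, then the clock gene with the lowest unadjusted p (0.0769, edgeR adjusted p = 0.993 or more for all 10), and 0.23 for nr1d2b. Without R860Q R158 they were -0.078, 0.24 and -0.25 in the same order.

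The CLOCK genes, which code for a partner in the E-box activator, had the fewest reads of the 10, 547 for clocka and 793 for clockb over all tumours. clocka was at 6.93, 7.78, 7.72, 5.23 and 6.82 CPM in R860Q and at 2.69, 7.58, 7.28 and 4.87 CPM in EGFP tumours. The low value in EGFP R162 rested on 11 reads, with an exact 95% Poisson interval of 1.34 to 4.81 CPM that covers counting error only. clockb was at 9.47, 13.5, 2.91, 9.60 and 11.8 CPM in R860Q and at 10.03, 7.995, 10.8 and 8.47 CPM in EGFP tumours. In R860Q R159 it had 20 reads, an interval of 1.78 to 4.501 CPM that lies below those of the other 8 tumours. The tumour low in clockb was not the tumour low in clocka, which stood at 7.72 CPM in R860Q R159. The log2 fold change was 0.29 ± 0.34 for clocka and 0.026 ± 0.38 for clockb (SE, edgeR adjusted p = 0.950 and 0.998), and clockb stood at 0.26 without R860Q R159. Without EGFP R162 clocka stood at 0.072, and without EGFP R163 at 0.47.

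dbpa, the D-box factor, was at 22.9, 42.2, 16.9, 36.5 and 23.0 CPM in R860Q and at 13.5, 28.3, 31.1 and 32.8 CPM in EGFP tumours. R860Q R158 and R160 were the highest, as for per1a, and EGFP R162 was the lowest. The means were 28.3 ± 10.6 and 26.4 ± 8.84 CPM (SD, n = 5 and 4). On the log2 scale the fitted difference was 0.095 ± 0.35 (SE, edgeR adjusted p = 0.987). It was -0.12 without EGFP R162 and 0.24 without R860Q R159.

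**Figure D2:**
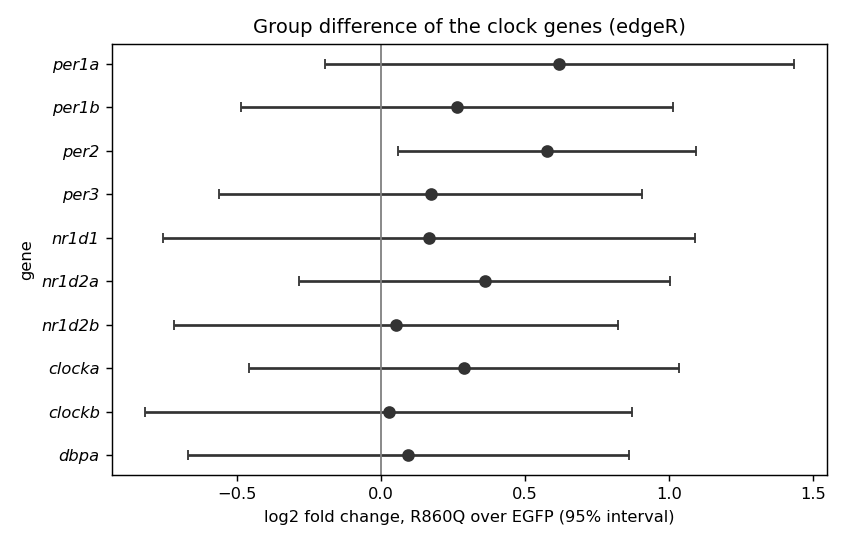
Log2 fold change of each clock gene (x axis, R860Q over EGFP, edgeR) with its 95% interval. All 10 points lie above 0 and all intervals but that of per2 include 0; the adjusted p-values are 0.767 or more.

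By edgeR, 0 of the 10 clock genes passed an adjusted p under 0.05, as did 0.0% of all 15169 genes tested. At an unadjusted p under 0.05 there was 1 clock gene, per2, and DESeq2 and limma voom with sample weights also called 0 of the 10. All 10 fitted values were above 0, as were those of 47.2% of all genes, and their median log2 fold change was 0.22 against -0.026 over all genes. This lean rested on R860Q R158, the tumour with the most human CDK13 (751 CPM). Without R158, 5 of 10 genes were on the higher side and the median was 0.013. With limma voom and sample weights 6 of 10 were on the higher side. The 95% intervals of the log2 fold changes reached up to 1.43 for per1a and down to -0.82 for clockb. Libraries of 5 against 4 tumours with this spread were simulated (14823 genes tested), with 50 changed genes per size drawn at random from expressed genes. The share of changed genes that edgeR found was 2% for a log2 change of 1, 42% for 2, 82% for 3 and 90% for 4. In the same run 4 unchanged genes were called. The clock genes were not simulated on their own, so these shares are not theirs.

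From tumour to tumour, without regard to group, the highest level exceeded the lowest by 2.22-fold in nr1d2a, 2.29-fold in per2, 2.51-fold in per3, 2.60-fold in nr1d2b, 2.89-fold in clocka, 3.03-fold in nr1d1, 3.14-fold in dbpa, 3.18-fold in per1a, 3.27-fold in per1b and 4.63-fold in clockb. Within the groups, the spread of these genes was not wide against other genes. The SD of log2 CPM within groups was between 0.26 in per2 and 0.66 in nr1d1, which placed per2 at percentile 5.10 and nr1d1 at percentile 60.9 of all genes tested, with the other 8 in between. R860Q R158 was the highest tumour in 8 of the 10 genes, while it was the highest in 13.3% of all genes. The median deviation of the 10 genes from their means was 0.65 on the log2 scale in R860Q R158, 0.32 in R860Q R160 and 0.26 in EGFP R164. It was lowest in EGFP R162 (-0.42) and R860Q R157 (-0.22). Among R860Q tumours, R158 and R160 also had the most human CDK13. R157, with the lowest median of that group, came next at 66.7 CPM, above R159 (54.8 CPM) and R161 (16.2 CPM). The relation between human CDK13 and the clock genes was not tested. Over all genes the median deviation in R860Q R158 was 0.0039.

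The relation between the clock genes across the 9 tumours was then examined, since tumours taken at different clock phases would differ in these genes. The plan was to look for opposite levels of clocka or clockb and the period, REV-ERB and dbpa genes. Dissection times are not given, so clock phase itself was not tested. Of 45 pairs of the 10 genes, 40 had a positive Pearson r of log2 CPM, with a median of 0.42. The share of positive r over all pairs of tested genes was not computed. The 45 pairs share genes and tumours, so counts of positive pairs are a description only. Among the 28 pairs without a CLOCK gene the median was 0.50 and 27 were positive, and among the 17 pairs with clocka or clockb it was 0.28 and 13 were positive. Of the pairs with a CLOCK gene, 6 of 6 with a REV-ERB gene were positive (median r = 0.31). So were 5 of 8 with a period gene (median 0.16) and 2 of 2 with dbpa (median 0.46). The planned opposite pattern was thus not seen over all 9 tumours. Some signs changed without the 2 tumours farthest from the median of the first gene named. Then clocka with dbpa and clockb with dbpa both stood at -0.28. For nr1d1, nr1d2a and nr1d2b, r was then -0.26, 0.54 and 0.26 with clocka and -0.098, 0.22 and -0.58 with clockb. For per1a, per1b, per2 and per3 it was 0.21, -0.27, 0.59 and 0.59 with clocka and 0.60, 0.079, -0.50 and -0.033 with clockb. Over all 9 tumours clocka and clockb themselves had an r of -0.17. The closest pair was per1b and nr1d1, both known targets of the CLOCK activator, with r = 0.84 (exact two-sided permutation p = 0.00146, 0.0656 adjusted over 45 pairs) and Spearman rho = 0.80 (exact p = 0.0138, adjusted 0.540). It was 0.81 without the 2 tumours farthest from the median of per1b, and 0.80 without R860Q R158. The pairs with the next lowest p were per1b and nr1d2b (r = 0.73, rho = 0.40), per2 and per3 (0.71 and 0.65), nr1d1 and nr1d2a (0.70 and 0.58) and per3 and dbpa (0.69 and 0.65). Their exact permutation p-values for r were 0.0250, 0.0362, 0.0394 and 0.0434, each 0.355 after adjustment, and those for rho 0.291, 0.0666, 0.108 and 0.0666, adjusted 0.702 for the first and 0.540 for the others. Without the 2 farthest tumours of the first gene, r was 0.32, 0.60, 0.29 and 0.62, lowest for per1b with nr1d2b and nr1d1 with nr1d2a. Leaving out extreme values narrows the range and by itself lowers r. Without R860Q R158 alone these 2 pairs stood at 0.37 and 0.56. No pair passed the adjustment. Without R860Q R158, 32 of 45 pairs were positive with a median of 0.17, and the lowest adjusted p was 0.664 by exact permutation. Each group has fewer than 6 tumours, so no r was taken within a group. With the group mean taken off each gene, per1b and nr1d1 stood at 0.84 and per2 and per3 at 0.85.

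**Figure D3:**
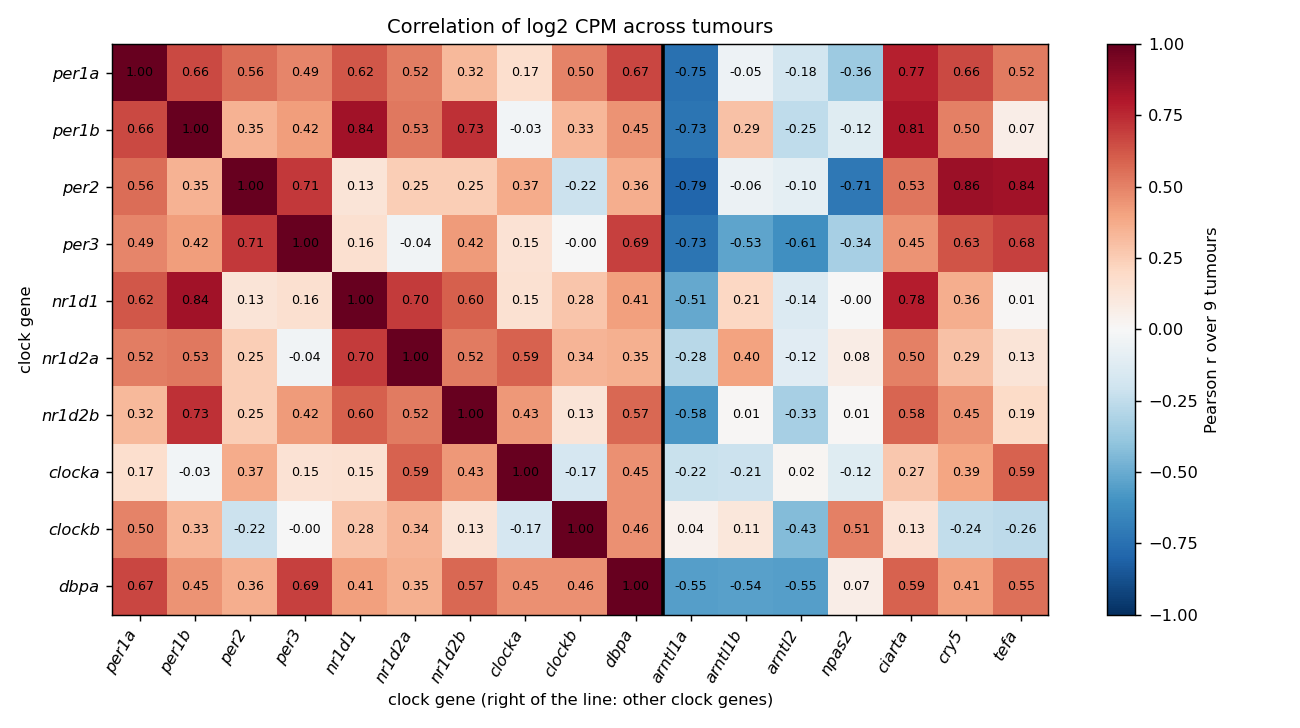
Pearson r of log2 CPM over 9 tumours between the 10 clock genes (left of the line) and between them and 7 other clock genes (right), red positive and blue negative. The period, REV-ERB and dbpa rows are mostly red among themselves and blue against arntl1a, and clocka and clockb are paler.

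Genes of the rest of the clock were then read from 7 lists, with 49 of 65 listed symbols in the files and 46 of them tested, beside the 10 above. None of the 46 passed by edgeR (lowest adjusted p = 0.813), and 31 had fitted values above 0 (median log2 fold change 0.16), as had 47.2% of all genes. The directions in these lists were not checked without R860Q R158. Of the other activator genes, which include the BMAL genes under their names arntl1a, arntl1b and arntl2, 2 of 4 were on the higher side. The CLOCK paralog npas2 was at -0.93 ± 0.66 and arntl1a at -0.25 ± 0.31 (SE, edgeR adjusted p = 0.934 and 0.960). All 6 cryptochrome genes were on the higher side (median 0.33), with cry1ab at 0.91 ± 0.48 and cry1aa at 0.92 ± 0.64 (edgeR adjusted p = 0.870 and 0.933). Of 5 receptor genes 2 were on the higher side (median -0.12). Among them nr1d4b, a REV-ERB relative, stood at -1.08 ± 0.55 and roraa, a ROR activator that competes with the REV-ERBs, at -0.48 ± 0.32 (edgeR adjusted p = 0.856 and 0.931). In the list of dbpa's relatives and the nfil3 genes, which code for repressors of the same elements, 7 of 9 were on the higher side (median 0.37). The D-box factors tefb and hlfa stood at 0.70 ± 0.32 and 0.79 ± 0.50 (edgeR adjusted p = 0.813 and 0.922).

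Of 12 kinases, ligases and bHLH repressors 7 were on the higher side (median 0.065). ciarta, whose mouse counterpart represses the CLOCK activator, was at 0.54 ± 0.37, and fbxl3a, whose mouse counterpart marks cryptochromes for degradation, at 0.43 ± 0.39 (SE, edgeR adjusted p = 0.933 and 0.941). All 3 cell cycle genes were on the lower side (median -0.29), with the inhibitor cdkn1a at -0.79 ± 0.71 and cyclin B1, ccnb1, at -0.29 ± 0.45 (edgeR adjusted p = 0.941 and 0.978). All 7 light-induced and DNA repair genes were on the higher side (median 0.53). Their lowest p-values were those of cry5, the 6-4 photolyase, at 0.96 ± 0.48, and cry-dash, a relative of the photolyases, at 0.94 ± 0.58 (edgeR adjusted p = 0.838 and 0.917). cry5 was at 6.41, 29.0, 18.1, 15.4 and 6.54 CPM in R860Q and at 5.87, 11.6, 5.38 and 7.82 CPM in EGFP tumours. cry-dash was at 5.07, 19.9, 22.4, 19.3 and 4.12 CPM in R860Q and at 2.45, 9.23, 6.84 and 10.6 CPM in EGFP tumours. Both genes were high in R860Q R158, R159 and R160, the 3 tumours where per2 was highest, while R860Q R157 and R161 lay within the EGFP range. These 3 tumours also had the muscle scores 1.67, 4.62 and 3.96, whereas EGFP R162, with a muscle score of 2.86, had 30.3 CPM of per2 and the lowest cry-dash of the 9 tumours. The part of muscle RNA in this pattern was not tested.

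**Figure D4:**
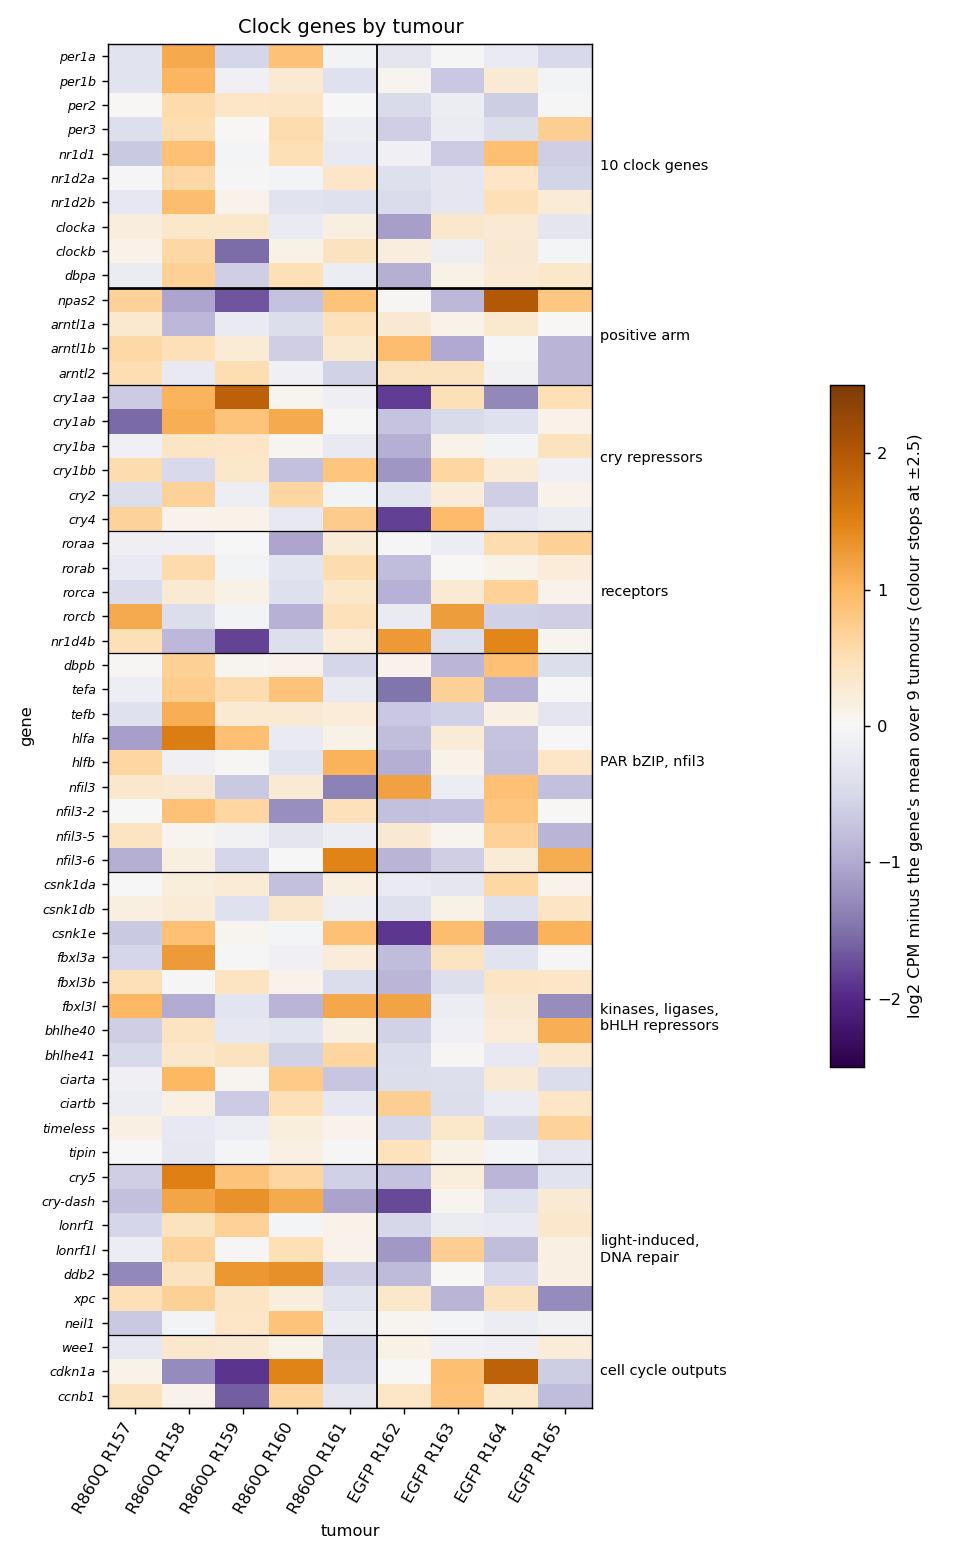
Log2 CPM of 56 clock genes (rows, by list) in 9 tumours (columns) as the difference from each gene's mean, orange above and purple below. R860Q R158 is orange for all 10 genes of the top block and purple for arntl1a, and R860Q R158, R159 and R160 are orange for cry5, cry-dash and ddb2.

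Each of the 10 genes was correlated with each of these 46 genes, a family of 460 relations added after the data were seen. None passed Benjamini-Hochberg adjustment, the lowest adjusted p being 0.334 by exact permutation, and 46 had an unadjusted p under 0.05. arntl1a, a BMAL gene, was at 10.7, 4.67, 7.43, 6.40 and 11.8 CPM in R860Q and at 10.5, 9.31, 10.6 and 8.64 CPM in EGFP tumours, lowest in R860Q R158 and R160. Its r was -0.79 with per2 (rho = -0.60), -0.75 with per1a (rho = -0.28), -0.73 with per3 (rho = -0.65) and -0.73 with per1b (rho = -0.60). The exact permutation p-values for r were 0.00975, 0.0292, 0.0229 and 0.0272, adjusted 0.366, 0.398, 0.366 and 0.392, and those for rho 0.0968, 0.463, 0.0666 and 0.0968, adjusted 0.645, 0.887, 0.612 and 0.645. In the same order r was -0.73, 0.67, -0.89 and -0.47 without the 2 tumours farthest from the period gene's median, so the relation with per1a rests on R860Q R158 and R160. For the REV-ERB gene nr1d1, r with arntl1a was -0.51 (exact permutation p = 0.152, adjusted 0.540), and -0.21 without R860Q R158. Its rho was -0.43 (exact p = 0.250, adjusted 0.756). Of the 10 genes 7 had an r of -0.5 or less with arntl1a, as had 12.4% of all genes, a limit chosen after the values were seen. Without R860Q R158 these were 2 of 10, per2 (-0.71) and per3 (-0.72), against 11.6% of all genes. The ratio of per1b to arntl1a CPM, which no scaling of libraries can change, was 18.4 in R860Q R158, 8.02 in R860Q R160 and between 2.80 and 5.31 in the other 7 tumours. For each of the 10 genes this ratio was highest in R860Q R158, and R860Q R160 came next except for nr1d2b and clocka. In R860Q R160 these stood at 15.4 and 0.818, below R860Q R159 at 17.7 and 1.04. All 10 ratios have arntl1a as denominator, and its level was lowest in R860Q R158 and R160. A gene with a flat level would therefore also have its highest ratio in R860Q R158, so the 10 ratios are not separate observations. The share of all genes with this order was not computed. For arntl1b, another BMAL gene, r with the 10 genes lay between -0.54 (dbpa) and 0.40 (nr1d2a).

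Of the 46 other clock genes, the light-induced photolyase gene cry5 had the highest r with per2. The r of per2 was 0.86 with cry5 (rho = 0.82), 0.84 with tefa, a D-box factor needed for light induction of per2 in zebrafish cells (rho = 0.75), and 0.76 with cry-dash (rho = 0.65). Exact permutation p-values for r were 0.00252, 0.00479 and 0.0179, adjusted 0.334, 0.334 and 0.366, and those for rho 0.0108, 0.0255 and 0.0666, adjusted 0.495, 0.586 and 0.612. Without the 2 tumours farthest from the per2 median r was 0.76, 0.79 and 0.86. Relations outside the light-induced list were of like size. The r of per2 with nr1d4b was -0.85 (rho = -0.70). That of per3 with fbxl3l, from the ligase list, was -0.90 (rho = -0.87), and that of nr1d1 with dbpb, a relative of dbpa, 0.84 (rho = 0.83). Their exact permutation p-values for r were 0.00424, 0.00209 and 0.00452, each 0.334 after adjustment. Of the 7 light-induced and DNA repair genes 5 had an r of 0.5 or more with per2, as had 13.8% of all genes, again a limit set after the values were seen. The r of per3 was 0.63 with cry5, 0.75 with cry-dash, 0.67 with lonrf1, 0.69 with lonrf1l and 0.69 with ddb2. It was 0.45 with neil1 and -0.31 with xpc. For cryptochromes, the r of per2 was 0.79 (cry1aa), 0.76 (cry2), 0.70 (cry1ab), 0.62 (cry1ba), 0.34 (cry4) and -0.062 (cry1bb). Values of this size were thus particular neither to per2 nor to the light-induced list. With nr1d1, nr1d2a and nr1d2b the r of per2 was 0.13, 0.25 and 0.25 (rho = 0.13, 0.33 and 0.20). Exact permutation p-values for r were 0.745, 0.518 and 0.525 and those for rho 0.744, 0.385 and 0.613, adjusted over the 45 pairs 0.828, 0.712 and 0.712 for r and 0.929, 0.722 and 0.812 for rho. Without the 2 tumours farthest from the per2 median r was 0.47, 0.39 and 0.38.

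Among all named genes, those most like nr1d1 over the 9 tumours were mns1 (r = 0.89), cipca (0.86), cluap1 (0.86), dedd1 (0.85) and per1b (0.84). cipca belongs to the clock as well, since its mammalian counterpart binds CLOCK and represses it, and it was on none of the lists. An r of 0.8 or more with nr1d1 was found for 0.251% of all genes. Those most like clocka were usp5 (0.98), helb (0.96), usp7 (0.96), clip1a (0.96) and map3k4 (0.96), none of them on a clock list, and 1.48% of all genes had an r of 0.8 or more with clocka. The log2 deviation of clocka from its mean was -1.11 in EGFP R162, on 11 reads, and between -0.30 and 0.35 in the other tumours. The r values with clocka were not computed without EGFP R162. The genes most like nr1d1 and clocka were picked for their r, which is given as a description over 9 points that share libraries and depth.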

How the data were processed

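The deposited values are raw read counts per gene symbol for 9 melanomas, and per the submitters' processing notes the authors used Bowtie, HTSeq and the build danRer10 (GRCz10). Versions, annotation and the strand setting are not given in the sources used here. Per the labels' protocols, libraries were randomly primed from ribosome-depleted RNA, fragmented for 15 min, amplified for 12 PCR cycles and read as 100-bp pairs. All 10 symbols were found in RefSeq's table for GRCz12tu, another build, where per1b overlaps dthd1 and clockb overlaps kitb, so reads there may not be separated if strand was not used.

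Counts were scaled by TMM and filtered with filterByExpr (minimum count 10, minimum total 15) in edgeR 4.0.16 (R 4.3.3). The 2 groups were set against each other by the quasi-likelihood test of edgeR (robust dispersion), and p-values were adjusted by Benjamini-Hochberg over all genes, with 0.05 as the threshold. Log2 CPM used a prior count of 2. Correlations were tested by exact two-sided permutation over all 362880 orders of 9 tumours. Intervals on reads cover counting error only, since reads had no molecular identifiers, and 3 counts correspond to 0.164 to 0.734 CPM. No pair of tumours agreed within sampling noise (lowest chi-square per degree of freedom 42.9), and all 9 were kept. Alternatives were DESeq2 size factors, upper-quartile factors, the filter dropped or tightened (at least 4 tumours with a CPM of 1), dispersion without the robust option, DESeq2 1.42.0, voom with sample weights in limma 3.58.1, the muscle score as a covariate and leaving out each tumour.

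The genes and lists were chosen with earlier results of these data known. Named beside the 10 genes were the 2 genes with the smallest p in each list and the 5 named genes most like nr1d1 and clocka. Chosen after their values were seen were tefa, arntl1b, fbxl3l and dbpb. The edgeR fit was tested on simulated counts. A planned search of promoters for clock motifs was not run, and no sequences are given.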

Additional observations from a re-analysis of the deposited data

Results flagged for a closer look

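Among 48 combinations of gene and group, 3 values stood far from the rest of their group by Dixon's test at the 95% level, which chance gives in about 1 group in 20. In R860Q R158, nr1d2b was at 236 CPM, with the next R860Q tumour at 132 CPM. In the same tumour fbxl3a was at 52.3 CPM, with the next at 25.4 CPM. In EGFP R164, ciarta was at 163.1 CPM, with the next EGFP tumour at 104 CPM.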

How the results depend on the processing

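The number of clock genes that passed was 0 under all 17 alternatives, and per1a, per2, per3, nr1d2a and clocka stayed on the higher side in each of them. DESeq2 called 20 genes higher and 48 lower among all genes, where edgeR called 0 and 0. Leaving out each tumour in turn gave 0 genes higher and between 0 and 1 lower (1 without EGFP R165). With limma voom and sample weights the log2 fold change turned to -0.087 for nr1d1, -0.14 for nr1d2b, -0.11 for clockb and -0.017 for dbpa, and with the muscle score as a covariate to -0.013 for nr1d1, and the cause was not tested. With a single tumour left out it ranged from -0.041 to 0.40 for per1b, -0.078 to 0.64 for nr1d1, -0.25 to 0.23 for nr1d2b, -0.13 to 0.26 for clockb and -0.12 to 0.24 for dbpa, fewer tumours being the change made. The count of member pairs with an adjusted p under 0.05 was 0 with DESeq2 size factors, with group means taken off and without R860Q R158, the last chosen after seeing the data. No paired analysis was possible because the groups share no replicate number. The low counts of clocka and clockb limit what can be said of single tumours. The same holds for arntl1a, at a mean of 8.19 CPM in R860Q and 9.77 CPM in EGFP tumours. No counting interval was computed for arntl1a.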
